A study of Drosophila melanogaster with 3 samples.

Results

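The positions bound by GFP-tagged Fru, a BTB zinc-finger transcription factor, were mapped at 10 genes that mark neurons or serve the synapse: elav, nSyb, Syt1, brp, Csp, Syx1A, Appl, para, cac and Snap25. They were chosen by name, as genes expressed across neurons or acting in vesicle release, excitability and synaptic growth, out of 13968 annotated protein-coding genes. For each gene, ChIP-seq summits (the position of highest signal in an enriched region) were sought in the annotated gene span plus 5 kb on each side, called its window here. The material was whole wandering larvae of the third instar, of the strain fru-MiMIC-GFP, males and females pooled, in which an eGFP exon inserted in an intron of fru yields a fusion protein from the endogenous gene. Anti-GFP chromatin immunoprecipitation was done in 3 biological replicates that form 1 group of 1 genotype, so there is no comparison between conditions and no test was made. The age is given as unknown, and a control genotype was not analysed here. Whole animals mix all tissues, so binding in a small share of the cells and weak binding in all of them cannot be told apart. The lists hold no RNA, and the labelled stage and material could not be checked against marker transcripts.

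Neurons release transmitter when a calcium signal drives fusion of synaptic vesicles with the membrane. The vesicle SNARE nSyb pairs with the membrane SNAREs Syx1A and Snap25, Syt1 senses the calcium, Csp is a chaperone of vesicle proteins, and brp builds the active zone where the calcium channel subunit encoded by cac is held. The sodium channel para carries the action potential, Appl is the fly homologue of the amyloid precursor protein, and elav encodes a neuronal RNA-binding protein that controls alternative RNA processing. The fru gene is best known for male-specific isoforms that act in the nervous system during courtship, and it also makes isoforms common to both sexes.

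Of the 10 genes, 5 had in their window at least 1 thresholded summit, one kept on the authors' list after their reproducibility step. They were elav, nSyb, brp, Csp and Syx1A. Among all protein-coding genes 56.0% had a thresholded summit in their window. The thresholded list holds the regions of highest pooled signal value, so a summit on it need not recur in every replicate. A thresholded summit within 500 bp of one of the gene's own transcription start sites (TSSs) was found at 3 of the 10, elav, Csp and Syx1A, against 24.6% of protein-coding genes. The same 3 genes were the ones with a thresholded summit inside the annotated span, against 16.9%. Syt1, Appl, para, cac and Snap25 had no thresholded summit in their windows.

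The windows of the 10 genes held 42 distinct summits of the pooled input list, the authors' list of 30000 regions before thresholding, and 13 of these were among the 8996 of the thresholded list. That is 31.0% of the summits in the windows, beside 30.0% of the whole input list. The 13 thresholded summits had a median place of 4425 when the list is ordered by the authors' signal value from the strongest down, and the whole list has a median place of 4498.5. Signal values come from the authors and were ordered only inside a single list. In strength the summits were therefore spread over the list, from place 178 at elav to place 8839, also at elav. Most lay outside the genes, with 3 inside a span and 10 in a flank.

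**Figure D1:**
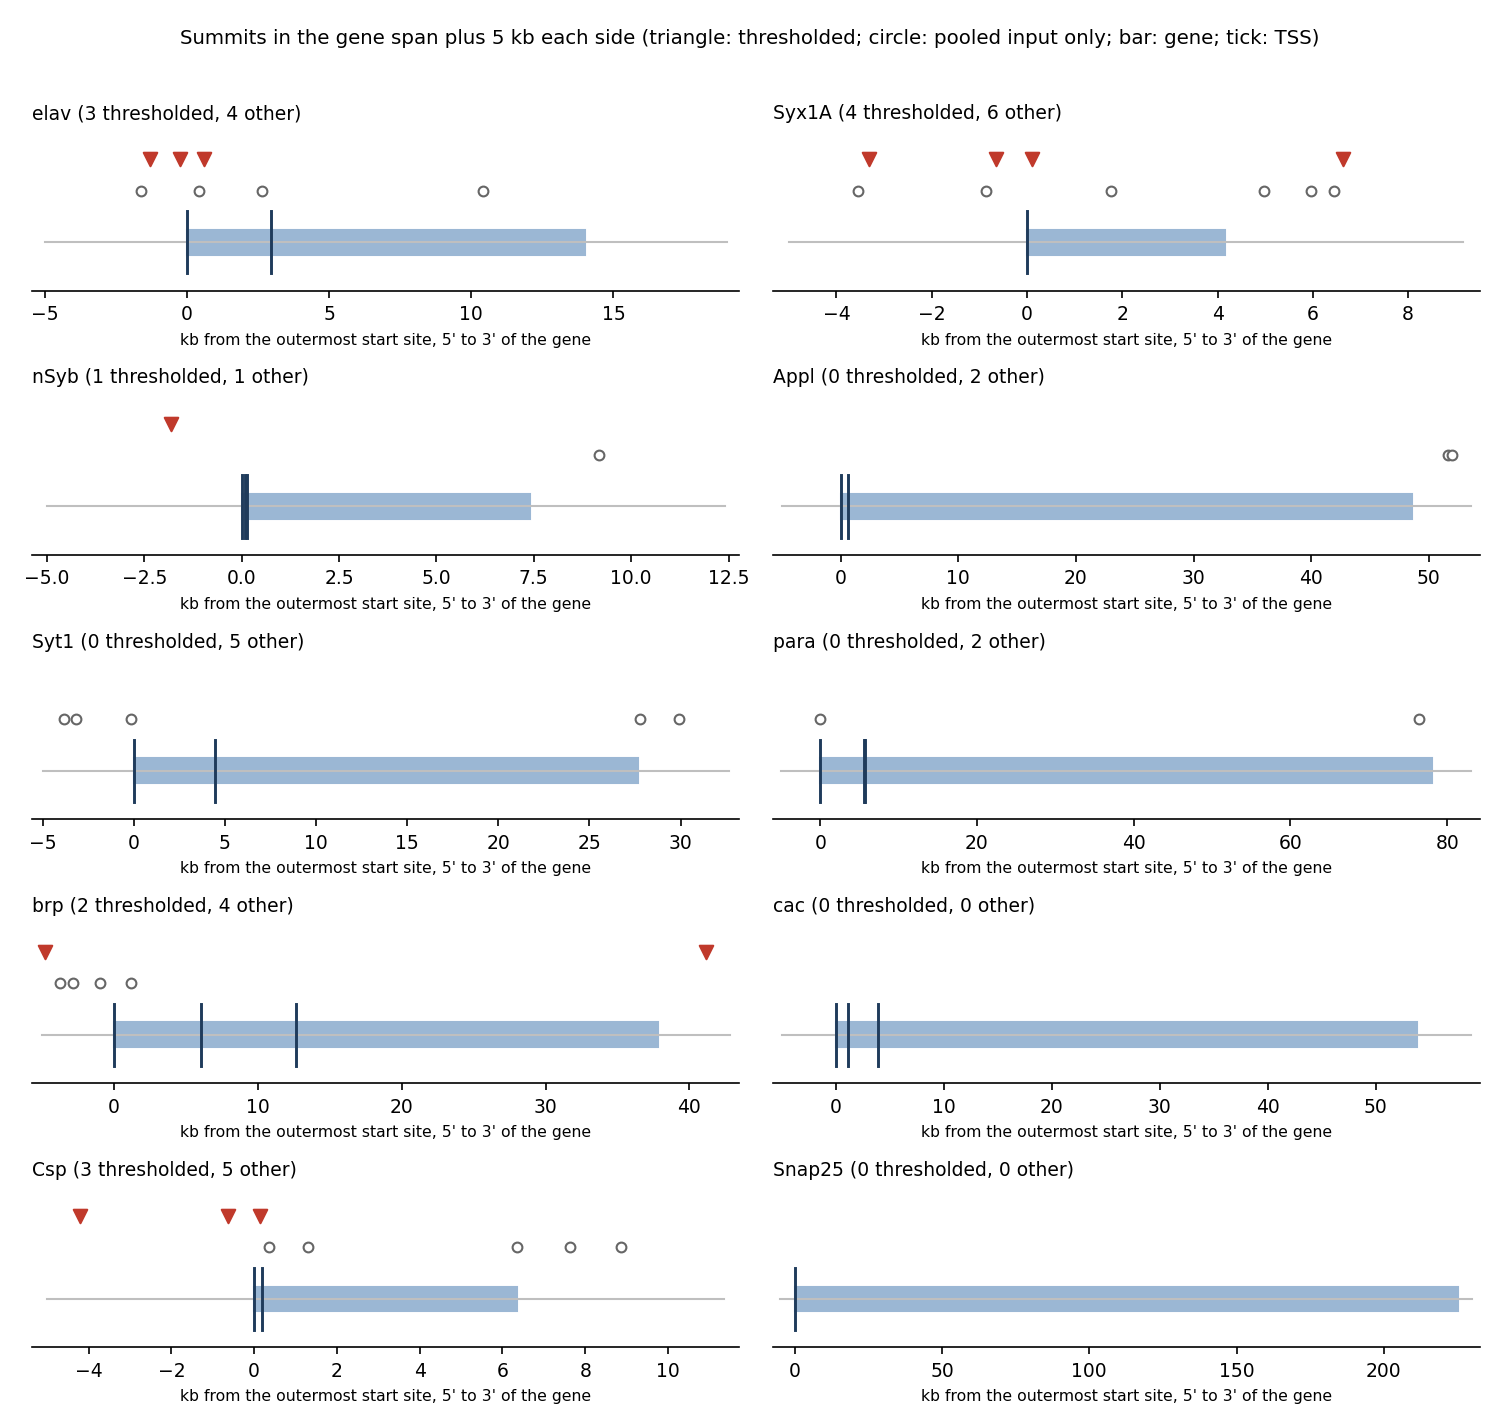
Maps of the 10 genes, drawn 5' to 3' in kb from the outermost TSS, with the span as a bar, TSSs as ticks, thresholded summits as triangles and other pooled input summits as circles. The 13 triangles sit at elav, nSyb, brp, Csp and Syx1A, and the windows of cac and Snap25 are empty.

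The strongest summit of the set lay at elav (FBgn0260400, chrX:509235-523226 on dm6, minus strand), 260 bp upstream of its distal TSS. It had a signal value of 1359 and place 178 in the pooled list. In replicates 1, 2 and 3 the matching region took places 216, 204 and 149 of 30000. All 3 replicates thus put it among their strongest regions, with little spread. The position (summit at X 523486) is inside an intron of arg, the arginase gene that overlaps most of elav on the opposite strand, and lies at the same distance from the TSS of lncRNA:enrr, which shares the start of elav.

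A second elav summit lay 610 bp downstream of that TSS in the first intron of the gene (summit at X 522616, signal value 547.4, place 1097), with places 705, 1089 and 1698 in replicates 1, 2 and 3. The last, 1312 bp upstream, was near the end of the thresholded list at place 8839. Its places in replicates 1, 2 and 3 were 12286, 10401 and 11018, outside the 8996 strongest regions of each replicate. The proximal TSS of elav at X 520285 had an input summit 302 bp upstream that did not pass the threshold (place 17316) and had no region of replicate 3 within 100 bp. At elav, strong and recurrent signal was thus found at the distal start and in the first intron behind it.

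The bases under the strongest elav summits are shown because they carry the best-supported binding in the set; both are read 5' to 3' from the plus strand of the dm6 genome (RefSeq), 50 bases to each side of the summit. Capitals mark matches to any of the 8 short words searched on both strands, which were the GAGA-factor core GAGAG, the repeat word CACACA, the DREF-element word TATCGATA, the Zelda word CAGGTA, the E-boxes written CACGTG and also CAGCTG, the TATA-box word TATAAA, and finally the hexamer AATTTG.
elav, 260 bp upstream, chrX:523436-523536: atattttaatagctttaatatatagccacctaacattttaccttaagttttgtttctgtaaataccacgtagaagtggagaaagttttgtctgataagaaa
elav, 610 bp downstream, chrX:522566-522666: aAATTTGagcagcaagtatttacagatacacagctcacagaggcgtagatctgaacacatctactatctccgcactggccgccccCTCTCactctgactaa
The upstream window has 27.7% G and C and none of the 8 words. The intronic window has 47.5% G and C, with AATTTG on the plus strand near one end and GAGAG, read as CTCTC, near the other.

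Among the genes of the fusion machinery, Syx1A stood out by its number of summits. Syx1A (FBgn0013343, chr3R:24101600-24105763, minus strand) encodes syntaxin and lies in an intron of eIF4EHP, the gene of a cap-binding translational repressor on the same strand. Its window of 14164 bp held 10 input summits, of which 4 were thresholded. The thresholded summit at its own TSS lay 97 bp downstream in the 5' UTR and was a weak one (signal value 136.6, place 6885). A region within 500 bp of the TSS was among the 8996 strongest of each replicate, at places 6089, 6683 and 6962, although the replicate 3 region closest to the pooled summit, within 100 bp, took place 10823.

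The other Syx1A summits were stronger and lay outside the gene. The strongest was 3325 bp upstream (signal value 531.6, place 1148; places 947, 1386 and 1217 in replicates 1, 2 and 3), but it was 128 bp from the TSS of eIF4EHP and 248 bp from that of the divergent gene CG18428. The next, 656 bp upstream of Syx1A, had a signal value of 315.3 and place 2485, with places 5020, 2745 and 1930. The last lay 6638 bp downstream of the TSS, past the end of Syx1A, in the intron of eIF4EHP (signal value 298.6, place 2683), with places 2062, 3261 and 3048. All 3 were among the 8996 strongest regions in each replicate, and 2 of them had Syx1A as the nearest protein-coding TSS.

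For the vesicle SNARE nSyb (FBgn0013342, chr3L:1630348-1637752, minus strand), the single thresholded summit lay 1822 bp upstream, beyond the start of Mettl2. It was 137 bp from the TSS of Bgb, which encodes a CBF-beta type partner of Runt-domain factors, and 339 bp from that of Mettl2. Its signal value was 494.7 and its place 1284, with places 656, 1524 and 2174 in replicates 1, 2 and 3. No pooled input summit lay inside nSyb, and neither the pooled list nor any replicate list had a region within 500 bp of its 3 TSSs. The second membrane SNARE, Snap25 (FBgn0011288, chr3L:24074180-24299205, plus strand), had no input summit at all.

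Csp (FBgn0004179, chr3L:22267382-22273745, plus strand) had its own promoter summit in the 5' UTR between its TSSs, 34 bp from the nearer one, with a signal value of 196.5 and place 4640. In replicates 1, 2 and 3 the places were 4071, 3843 and 6277, so the region was among the strongest 8996 in each. A second thresholded summit 633 bp upstream of Csp was 70 bp from the TSS of the neighbouring gene CG11523 (place 5902). Another, 4205 bp upstream (place 4636), lay between Ddx1, an RNA helicase gene 192 bp away, and Rich, 256 bp away. These neighbour summits were less regular, since the one at CG11523 took places 3293, 9045 and 8370 and the one at Ddx1 took 9370, 9149 and 3627 in replicates 1, 2 and 3.

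The bases under the own-promoter summits of Csp and Syx1A, cut short because they lie in 5' UTRs, and those under the summit between Bgb and Mettl2 and the one between eIF4EHP and CG18428 are given for comparison, on the plus strand of the same genome with the same use of capitals.
Csp promoter, chr3L:22267520-22267548: gaaatcattgatgtcggCAGGTAaaccga
Syx1A promoter, chr3R:24105652-24105680: caaatattgtttcgcgattttcccggcgg
nSyb flank at Bgb, chr3L:1639524-1639624: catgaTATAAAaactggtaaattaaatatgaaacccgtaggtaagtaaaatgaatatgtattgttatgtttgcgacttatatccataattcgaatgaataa
Syx1A flank at eIF4EHP, chr3R:24109038-24109138: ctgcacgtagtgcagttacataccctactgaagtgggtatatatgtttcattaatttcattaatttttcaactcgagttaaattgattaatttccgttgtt
The Csp stretch holds CAGGTA and the nSyb flank holds TATAAA, while the Syx1A promoter and the eIF4EHP flank hold no word.

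Over the windows of all 13 thresholded summits, 50 bp to each side, TATAAA or its reverse was found in 5 (38.5%), beside 19.2% of all thresholded summits and 16.2% of the input summits that did not pass. GAGAG was found in 1 of 13 (7.69%, beside 12.6% of all thresholded), CACACA in 2 (15.4%, beside 7.56%) and AATTTG in 2 (15.4%, beside 14.6%). CAGGTA was in 1 (7.69%, beside 2.11%). TATCGATA, CACGTG and CAGCTG were in none, and all thresholded summits hold them in 1.21, 0.789 and 3.68% of cases. With 13 windows, a single window makes up 7.69%, so each of these shares rests on few windows. Mean G and C content was 35.1% in the 13 windows, 36.0% over all thresholded summits and 39.4% over those that did not pass.

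The calcium sensor gene Syt1 (FBgn0004242, chr2L:2772327-2799979, minus strand) had 5 input summits in its window and none that passed the threshold. None of the 5 lay inside the gene. The strongest (signal value 94.97, place 9857) was 3819 bp upstream and nearer to daw, an activin-like ligand gene, and its places of 7318, 7744 and 17995 in replicates 1, 2 and 3 put it among the 8996 strongest regions of replicates 1 and 2. At the distal TSS of Syt1, 160 bp upstream, there was a weak input summit at place 24044 that was found in replicate 2 alone, at place 20614. The nearest thresholded summit was 6147 bp from the gene, 53 bp from a TSS of aph-1, a gamma-secretase subunit gene.

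The active zone gene brp (FBgn0259246, plus strand, chromosome 2R from 9503765 to 9541565) had 2 thresholded summits in its window, both in the flanks. The upstream one, 4811 bp before the first TSS, lay in an intron of Wnt2, a Wnt ligand gene (signal value 204.2, place 4425), with places 4807, 7051 and 3807 in replicates 1, 2 and 3. The downstream one lay in the 3' UTR of CG1888 (place 6812), with places 7207, 7610 and 9211. The 1 input summit inside brp, 1187 bp into the gene, was near the end of the list at place 28478. The thresholded signal in the window of brp was thus found in the genes on either side.

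The channel genes and Appl had little or nothing. The sodium channel gene para (FBgn0285944, chrX:16455027-16533096, minus strand) had 2 input summits, 1 at 18 bp from its distal TSS (signal value 27.79, place 27342) and 1 in its 3' UTR (place 22944), both with a region within 100 bp in replicate 3 and in neither of the other replicates. The calcium channel gene cac (FBgn0263111, chrX:11931280-11985087, minus strand) had no pooled input summit, and the replicate lists had 3, 1 and 0 regions in its window, none stronger than place 21170. Appl (FBgn0000108, chrX:530501-579044, plus strand) had 2 input summits in its 3' flank, both within 500 bp of the TSS of vnd, a neuroblast patterning gene, at places 22131 and 22800. In none of the replicates was a region in the windows of para, cac or Appl among the 8996 strongest. Appl came close, with a region at place 9035 in replicate 2, whereas the best place for para was 19809, in replicate 3.

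Snap25 is the longest of the 10, with a span of 225026 bp, and the emptiest. The pooled list and replicates 2 and 3 had no region in its window, and replicate 1 had 3, the strongest at place 27032. The nearest input summit was 39.9 kb from the gene and the nearest thresholded one 1160.0 kb. Within 1 Mb of Snap25 there were 16 input summits, 7.19 per Mb against 240.0 per Mb over the whole arm 3L, and 0 thresholded ones, and 12 of the 25 protein-coding genes there had an input summit in their window. Soft-masked (repeat) sequence made up 37.5% of the Snap25 span, beside 17.8% for the median gene over 20 kb and 13.3 to 37.9% in the other 9 genes, with Syt1 highest. The part of repeat content in the missing regions was not tested.

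Taken by length, most of the summits fell in the windows of the short genes, though largely in the flanks. The 4 genes with spans up to 20 kb (elav, nSyb, Csp and Syx1A) held 11 of the 13 thresholded summits and 27 of the 42 input summits in 71.9 kb of window. Of these, 3 thresholded and 10 input summits lay inside a span, and the rest in flanks. Each of the 4 had a thresholded summit in its window, as did 54.3% of all protein-coding genes up to 20 kb. By span class the share was 57.1% for 2000 to 5000 bp (the class of Syx1A) and 67.4% for 5000 to 10000 bp (nSyb and Csp). For 10000 to 20000 bp (elav) it was 76.8%. The 6 longer ones (Syt1, brp, Appl, para, cac and Snap25) held 2 and 15 in 531.0 kb. Inside the spans of the longer genes there were 3 input summits in 471.0 kb, or 0.0637 per 10 kb of summed span, and 0 thresholded ones. Snap25 alone made up 225026 bp of that sum. Taken singly, Syt1, Appl, cac and Snap25 had 0 input summits inside the span. For all 1020 protein-coding genes over 20 kb, the median of the densities of single genes was 2.06 per 10 kb. This is a different measure from the summed rate. The length of 20 kb, the distances to the nearest summit outside the windows, the surroundings of Snap25 and the repeat shares were chosen after the values were seen.

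Other genes of that length usually carried summits. Among the 1020 genes over 20 kb, 77.5% had a thresholded summit in the window (1 of the 6, brp), 64.6% had one inside the span (0 of 6) and 41.9% had one at an own TSS (0 of 6). No input summit was found in the window of 4.31% of them, and of 2 of the 6, cac and Snap25; over protein-coding genes of any length this was 23.9%. Among the 13 genes over 200 kb, 9 had no input summit, Snap25 among them. Among the 313 genes over 50 kb, 7.35% had none.

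**Figure D2:**
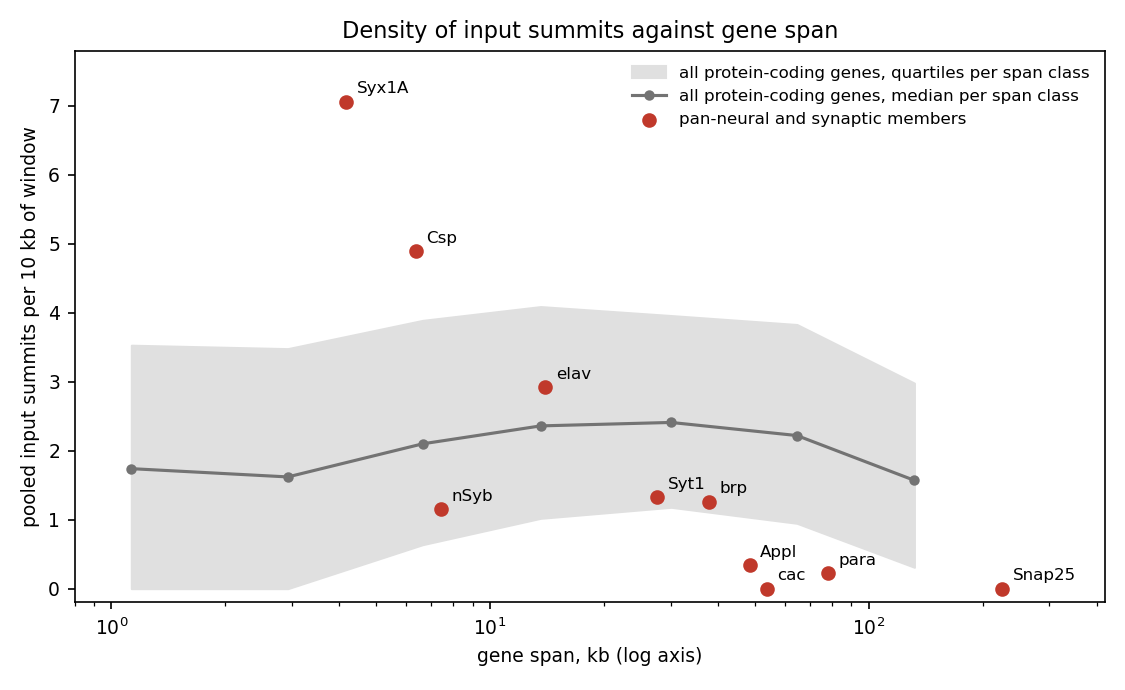
Pooled input summits per 10 kb of window (y axis) against gene span in kb (log x axis) for the 10 genes (red), with the median and quartiles of all protein-coding genes in 7 span classes (grey). Syx1A (7.06) and Csp (4.89) lie above the upper quartile of their classes, and Appl (0.342), para (0.227), cac and Snap25 (both 0) below the lower quartile.

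By density, Syx1A had 7.06 input summits per 10 kb of window, Csp 4.89, elav 2.92, Syt1 1.33, brp 1.26, nSyb 1.15, Appl 0.342, para 0.227, and cac and Snap25 0. The median of the 10 was 1.21, beside 1.79 for all protein-coding genes and 2.31 for those over 20 kb. In the whole replicate lists, regions per 10 kb were 8.47, 7.06 and 7.77 for Syx1A in replicates 1, 2 and 3, 6.72, 3.67 and 4.28 for Csp, and 2.92, 3.75 and 2.08 for elav. Syx1A was above Csp in every replicate, while the ranges of Csp and elav overlapped. The next 3 genes could not be ordered, with 1.34 ± 0.661 for nSyb, 1.33 ± 0.532 for Syt1 and 1.32 ± 0.237 for brp (SD, n = 3). Appl (0.455 ± 0.394), para (0.454 ± 0.196), cac (0.209 ± 0.239) and Snap25 (0.0427 ± 0.0739) came last, each with 3 replicates. Appl and cac overlapped each other and each of the other 2, whereas para was above Snap25 in every replicate. Of the 4, only para had a region in replicate 3.

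The replicates picked out the same members at own TSSs when each list was cut at its 8996 strongest regions. Among the 8996 strongest regions of each, elav, Csp and Syx1A were the members with a region within 500 bp of an own TSS in replicate 1, in replicate 2 and in replicate 3, which is 3 of 10 each time. Of all protein-coding genes 25.2, 27.3 and 24.3% had one in replicates 1, 2 and 3. In the whole replicate lists the members with any region at a TSS numbered 3, 5 and 4, the additions being Appl and Syt1 in replicate 2 and para in replicate 3.

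Of the 13 thresholded summits, 11, 10 and 10 were present among the strongest regions of replicates 1, 2 and 3, meaning a summit within 100 bp. Presence in all 3 was found for 8 (61.5%, beside 58.0% of all thresholded summits), 2 of them at elav, 3 at Syx1A and 1 each at nSyb, brp and Csp. The 13 were all found somewhere in the 30000 regions of every replicate. Regions in the 10 windows together numbered 58, 50 and 38 in the whole lists and 16, 14 and 13 among the strongest, and replicate 3 was lowest on both counts. The 4 short genes held 12, 11 and 12 of the strongest regions and the 6 long ones 4, 3 and 1.

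**Figure D3:**
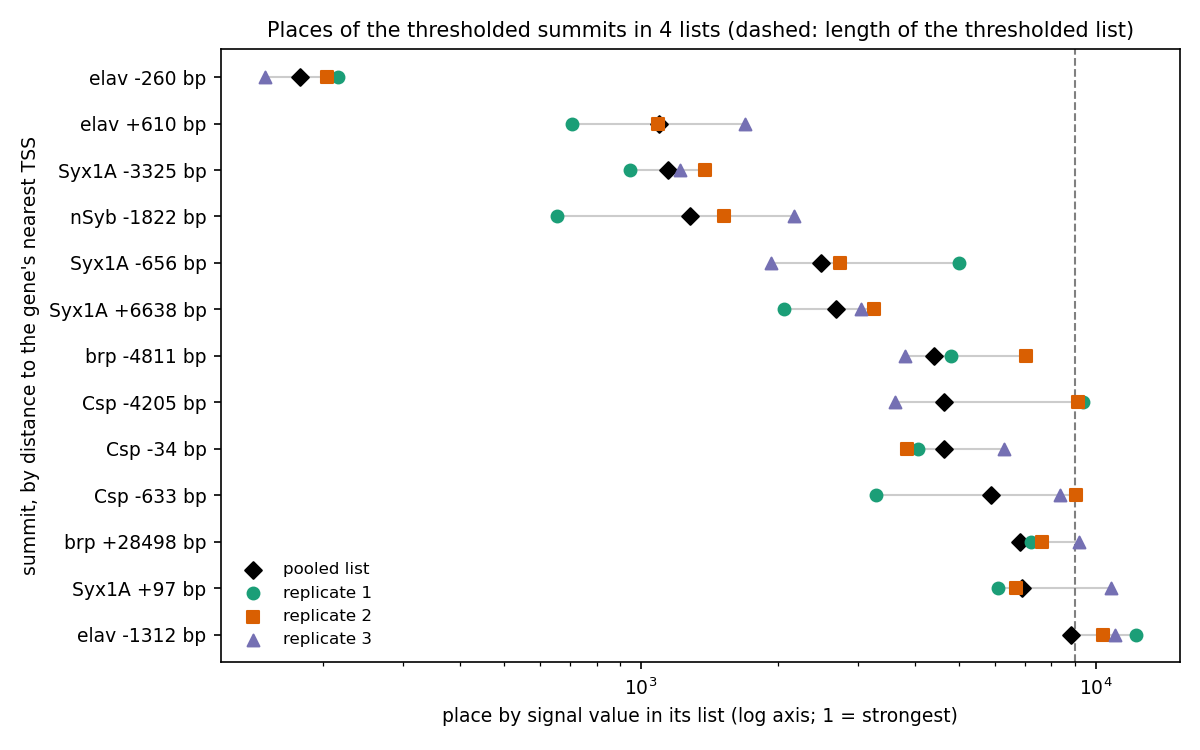
Place by signal value (log axis, 1 is strongest) of the 13 thresholded summits in the pooled list and in replicates 1, 2 and 3, with each summit named by its signed distance to the nearest own TSS. The elav summit 260 bp upstream stays between places 149 and 216 in all 4 lists, and the elav summit 1312 bp upstream lies beyond the dashed line at 8996 in every replicate.

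**Figure D4:**
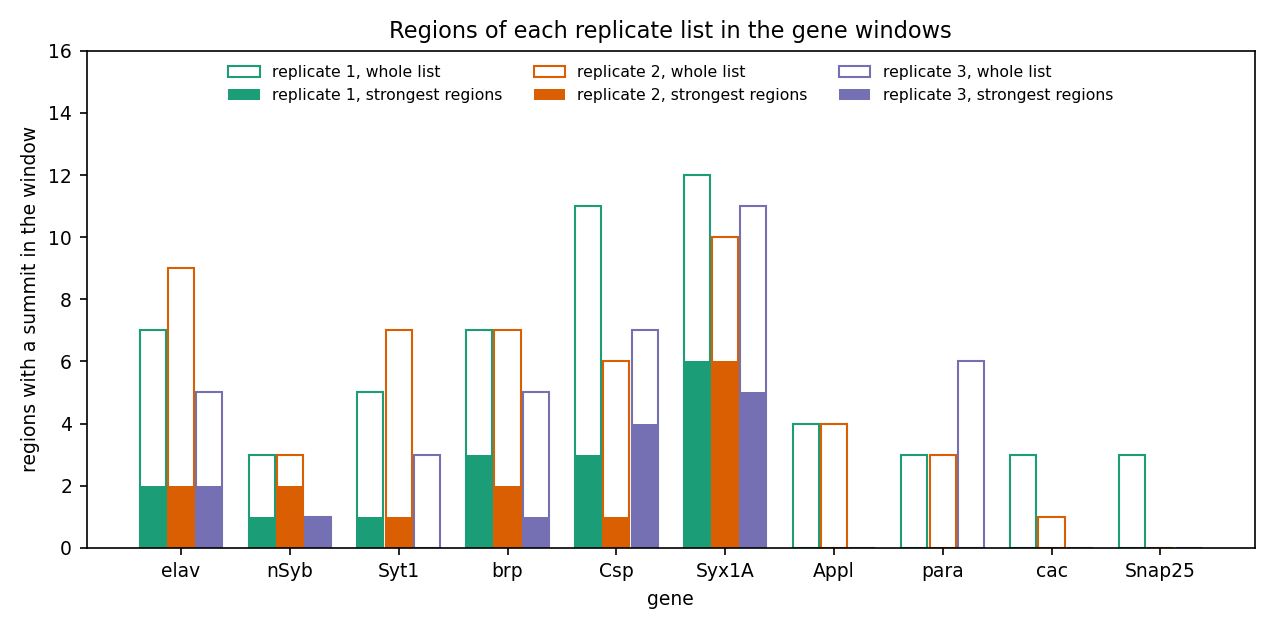
Number of regions in the window of each gene in the whole list (outline) and among the 8996 strongest regions (filled) of replicates 1, 2 and 3. Appl, para, cac and Snap25 have no filled bar in any replicate, and Syx1A has 6, 6 and 5.

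Promoter and gene-body places were compared next. Of the 13 thresholded summits, 3 were within 500 bp of an own TSS (23.1%), 4 in the promoter of a neighbouring gene, 1 in an own intron, the elav one, and 5 in the body of a neighbour. Counting any annotated TSS, 7 of 13 (53.8%) were in a promoter, beside 40.1% of all thresholded summits. The 40.1% covers the whole list, including summits outside any gene window, so these shares are not like for like. No share over all summits in gene windows is given here, for these or for the 23.1%. For 7 of the 13 the nearest protein-coding TSS was the gene's own, and these belonged to elav, Csp and Syx1A. No thresholded summit lay in coding sequence or a 3' UTR of the 10 genes.

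The 29 input summits that did not pass took places 9058 to 28975 in the pooled list, and 5 were found in the whole lists of all 3 replicates, 23 in 1 or 2 and 1 in none. One of them recurred among the 8996 strongest regions of all 3 replicates. It lay 3555 bp upstream of Syx1A, 18 bp from the TSS of CG18428, at pooled place 17071 and at places 3601, 8729 and 4433 in replicates 1, 2 and 3. Of the 29, 5 lay at an own TSS, 7 at the promoter of a neighbour, 10 in the body of a neighbour, 2 between genes, 2 in an own intron, 2 in an own 3' UTR and 1 in own coding sequence.

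A wider list of 106 neuronal and synaptic genes was sorted by role, and all but 2 were matched to the annotation. Among those matched, 29 (27.9%) had a thresholded summit within 500 bp of an own TSS, beside the 24.6% given above, and 71 (68.3%) had one in the window, beside 56.0%. The genes of the list are longer, with a median span of 10664.5 bp against 2164.5 bp. For the window the share was 65.1% among members up to 20 kb (41 of 63, beside 54.3% of all such genes) and 73.2% among those over 20 kb (30 of 41, beside 77.5%). The promoter share was 27.0% among members up to 20 kb (17 of 63, beside 23.2% of all such genes). Among those over 20 kb it was 29.3% (12 of 41, beside 41.9%). The class up to 20 kb is not matched for length, since the listed genes in it had a median span of 5290 bp. Of all genes up to 2000 bp, 15.2% had a promoter summit and 46.2% a window summit. For spans of 2000 to 5000 bp these shares were 27.2 and 57.1%, and for 5000 to 10000 bp 35.6 and 67.4%. In replicates 1, 2 and 3 the number of genes with a region among the strongest at a TSS was 25, 32 and 29. The roles differed in their counts, and no test was made between them.

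Relatives of the SNAREs, many of which act in general membrane traffic, had a promoter summit at 6 of 14. The strongest were at Syx4 (place 1105), Ykt6 (1369), Snap29 (1529), Syx17 (4761) and Syx13 (7695), with none at Snap24 and Syx16. The Syx13 summit took places 9399, 6772 and 11245 in replicates 1, 2 and 3. At a TSS of Syx16 lay 1 of the strongest regions of replicate 3. Of the genes listed as SNARE regulators 3 of 11 had a promoter summit, Tomosyn (4178), alphaSnap (6887) and comt (7533). The last encodes the NSF ATPase that takes SNARE complexes apart. The comt summit had no region of replicate 1 within 100 bp and place 14697 in replicate 2. The list also places Ank2, an ankyrin gene, in this role. Ank2 and Cadps had no promoter summit, though 1 of the strongest regions of replicate 1 lay at a TSS of Cadps. Neither synaptotagmins and vesicle proteins (0 of 11, Rab3 and Sap47 among them) nor genes of transmitter synthesis and transport (0 of 12, Ace and ChAT among them) had any, in the thresholded list or among the strongest regions of any replicate. A thresholded summit in the window was found at 5 of the 11 synaptotagmin and vesicle genes and at 9 of the 12 transmitter genes. The window share was 56.0% of all protein-coding genes and 67.4% of those of 5000 to 10000 bp. The median spans of these roles, 8932 and 8520 bp, fall in that class. The synaptotagmin and vesicle share was below both values. The transmitter share lay between 67.4% and the 76.8% for 10000 to 20000 bp. Both counts rest on few genes.

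Active zone genes had a promoter summit at 3 of 12, Nrx-1 (place 1916), Arl8 (5194) and Liprin-alpha (7765), with none at Fife and Nlg1. The Liprin-alpha summit had no region of replicates 1 and 2 within 100 bp, and the Arl8 summit had none of replicate 1. Endocytosis genes had one at 5 of 12, led by the adaptor gene AP-2alpha (497), the dynamin gene shi (4723) and the endophilin gene EndoA (7148), with stnA and stnB sharing 1 summit (8915) and none at Amph and Chc. The summit of stnA and stnB had no region of replicate 1 within 100 bp and place 10919 in replicate 3. At a TSS of Chc, however, lay 2 of the strongest regions of replicate 1 and 1 of replicate 2. Amph had 1 such region each in replicates 2 and 3. The AP-2alpha summit was the strongest of the wider list, with places 316, 358 and 1069 in replicates 1, 2 and 3. Voltage-gated channel genes had one at 4 of 16, NaCP60E (1173), Hk (1982), Ca-beta (5401) and Ih (8772), with none at Ca-alpha1D and Ca-alpha1T. At Ih, a region among the strongest was found at a TSS in replicate 1 alone. NaCP60E, a relative of para, took places 1084, 1014 and 1432 in the replicates, while para had no region among the strongest in any.

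Genes whose proteins process the amyloid precursor family or bind it had one at 5 of 7. These were aph-1 (place 861), X11L (1593), X11Lbeta (3541), pen-2 (4763) and kuz (6373), with none at Nct and Psn. The kuz summit took place 14572 in replicate 1. The aph-1 summit had no region of replicate 3 within 100 bp, but 2 of the strongest regions of that replicate lay at its TSSs. Among ELAV relatives and other nuclear factors of neurons 3 of 9 had a promoter summit, jim (3838), pros (7748) and Pdp1 (8134). All were weaker than the elav summit at place 178, and bru3 and fne had none. No region lay within 100 bp of the pros summit in replicate 1 or of the Pdp1 summit in replicate 3. Among the strongest regions of replicate 3, however, 2 lay at a TSS of Pdp1 and 1 at a TSS of fne.

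**Figure D5:**
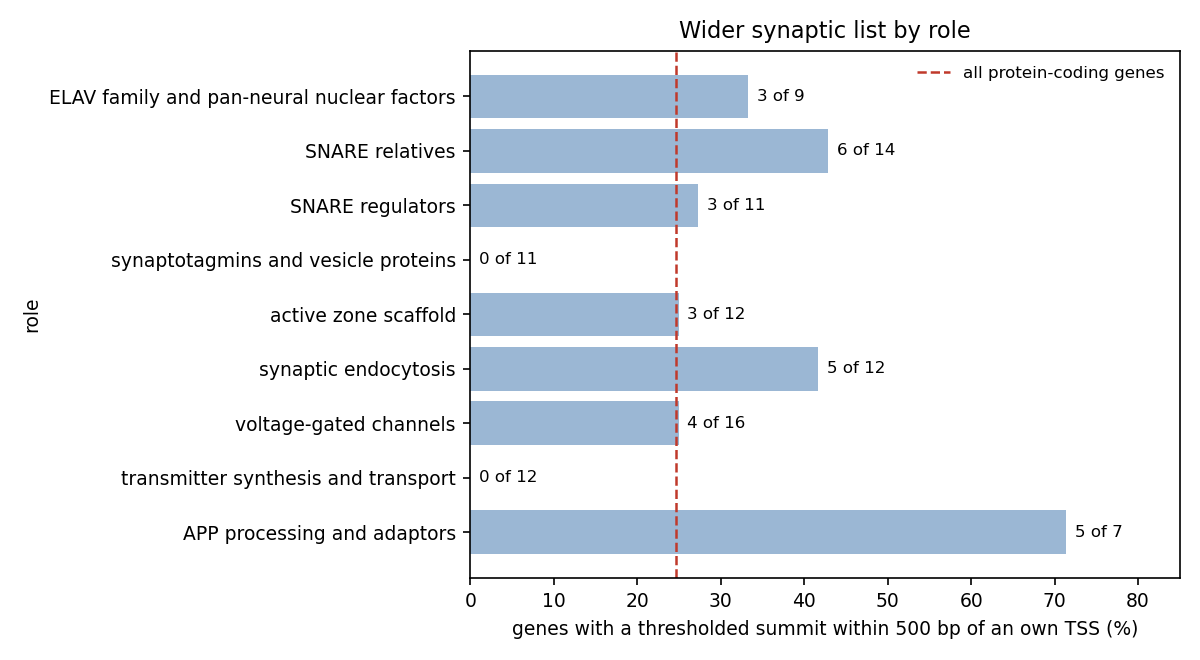
Percent of genes in each role of the wider list with a thresholded summit within 500 bp of an own TSS (bars, from 0; counts beside each bar), with the share of all protein-coding genes as a dashed line at 24.6%. Synaptotagmins and vesicle proteins, and transmitter genes, are at 0, and genes of APP processing and adaptors reach 71.4%.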

How the data were processed

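ChIP-seq summits were taken from lists deposited on dm6 for the pooled reads and each of the 3 replicates. Per the deposited sample notes, these were made from ChIP and control alignments, and the thresholded list was derived from them by an IDR (irreproducible discovery rate) step; the sources used here do not name the aligner, caller or cutoff. The deposited signal value is the authors' score with no fixed range, used only to order regions within 1 list. The deposited summit offset added to the region's start gives the summit, written 1-based. The lists hold no read counts, so depth is unknown. The dm3 lists were not used here.

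Genes came from Ensembl release 115 (BDGP6.54, the coordinates of dm6), without pseudogenes and transposable elements. Windows were the span plus 5 kb, promoters 500 bp around a TSS, and summits within 100 bp were matched between lists. Python 3.11.15 with pandas 2.3.3 was used, and counting was checked on simulated data. Of 106 listed symbols of the wider list, 100 matched directly, 4 by synonym and 2 not at all. All 10 members are named; in each role of the wider list, up to 5 genes with the strongest promoter summit and up to 2 without one. Members and lists were chosen with earlier results of these data known. Alternatives were the flank, the promoter distance, the matching rule, stricter lists, the nearest TSS and leaving out each replicate.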

Additional observations from a re-analysis of the deposited data

How the results depend on the processing

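No paired analysis was possible because there is 1 group. Of 60 recomputed values, 35 stayed within 1.5 times the one reported. Without any flank 3 members had a thresholded summit, with 3 summits, 66.7% of them at an own TSS, and 24 genes of the wider list had one. With 2 kb there were 8 summits, 37.5% of them at an own TSS. With 10 kb there were 9 members (all but Snap25), 24 summits and 12.5%. A promoter of 1000 bp gave 46.2%. In the 4498 strongest thresholded summits 4 members kept 7 summits, 1 member (elav) had one at a TSS, the share was 14.3%, and the wider list had 12 genes with one at a TSS and 46 in the window. Peaks of all 3 replicates gave 8 summits and 17 wider genes. Keeping summits nearest to an own TSS gave 3 members and 7 summits. In the whole replicate lists 13 of 13 summits recurred, and among the 4498 strongest regions of each 5 did.

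Leaving out 1 replicate, so keeping peaks present in both others, gave 5 members with a summit each time. There were 8 (without replicate 1) to 10 (without replicate 3) summits, and 2 to 3 members with one at a TSS (22.2 to 30.0% of summits). The count of recurrent summits, 8 to 10, is the same quantity. In the wider list, leaving out 1 replicate gave 17 to 19 genes at a TSS and 53 to 56 in the window. This rule is looser than presence in all 3 replicates, which kept 5 members and 8 summits. The counts could therefore not fall below those. Syx1A lost its promoter summit without replicates 1 and 2. The left-out replicate still contributes to the pooled list. Each setting changes which positions are counted. With no read counts, absence of a region cannot be set against depth.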
